A study of Mus musculus with 6 samples.

Results

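The genes described here are 10 genes of acid-base transport in the intercalated cells of the kidney's collecting duct. They were chosen by symbol (Atp6v1b1, Atp6v0d2, Atp6v1g3, Slc4a1, Slc4a9, Slc26a4, Foxi1, Car2, Rhcg and Aqp6), and all 10 are among the 46095 rows of the deposited table of raw counts per gene. RNA sequencing had been run on 6 mouse kidney samples of C57BL/6 background, 3 labelled DHT and 3 labelled control. DHT is dihydrotestosterone, a potent androgen used in mice to model polycystic ovary syndrome (PCOS), and the series is about PCOS-related kidney injury. Both groups carry "PCOS mouse" as the strain label, and the treatment label separates them. The labels used here give no age, sex, dose or length of treatment. They do not say whether the replicates of a group were different mice, so the p-values cover the spread between samples, which may be technical.

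Intercalated cells secrete acid or base into the urine. Type A cells pump protons into the lumen with a vacuolar proton pump (V-ATPase) and return bicarbonate to the blood through the anion exchanger encoded by Slc4a1. Type B cells secrete bicarbonate through pendrin, encoded by Slc26a4, while taking up chloride. The transcription factor Foxi1 is required in mice for these cells to form, and carbonic anhydrase and an ammonia channel serve the same transport.

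No member passed the test between DHT and control kidneys (edgeR's quasi-likelihood test, Benjamini-Hochberg adjusted p under 0.05 over 15367 genes), where 2.84% of all tested genes did, 1.38% higher and 1.46% lower in DHT. The smallest adjusted p belonged to Atp6v1g3 and Slc26a4, at 0.0663 and 0.0935, and both had higher values in all 3 DHT libraries than in any control library. At an unadjusted p under 0.05 stood 3 of 10 members, against 23.9% of all tested genes. The limma-voom test also called 0 members, where it called 2.09% of all genes, 1% higher and 1.09% lower in DHT. DESeq2 called 2, Atp6v1g3 and Slc26a4 (adjusted p = 0.0136 and 0.0279), where it called 10.8% of all genes, 5.67% higher and 5.18% lower in DHT. All 10 members passed the low-count filter, with 742 to 9354 counts per library. Their median log2 fold change was 0.10, against 0.00 over all tested genes, with 6 members above 0 and 4 below. Of all 15367 tested genes, 7736 were above 0 and 7631 below.

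Summed over the 10 genes, expression was 1580, 1497 and 1550 counts per 1e6 (CPM, scaled by TMM) in DHT replicates 1, 2 and 3, against 1687, 1406 and 1559 CPM in control replicates 1, 2 and 3. The 3 DHT sums lay within the control range. In RNA of a mixed tissue, a change in the number of intercalated cells and a change in the RNA per cell cannot be told apart. The CPM of DHT and control kidneys did not overlap for 4 of 10 members, against 29.8% of all tested genes.

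**Figure D1:**
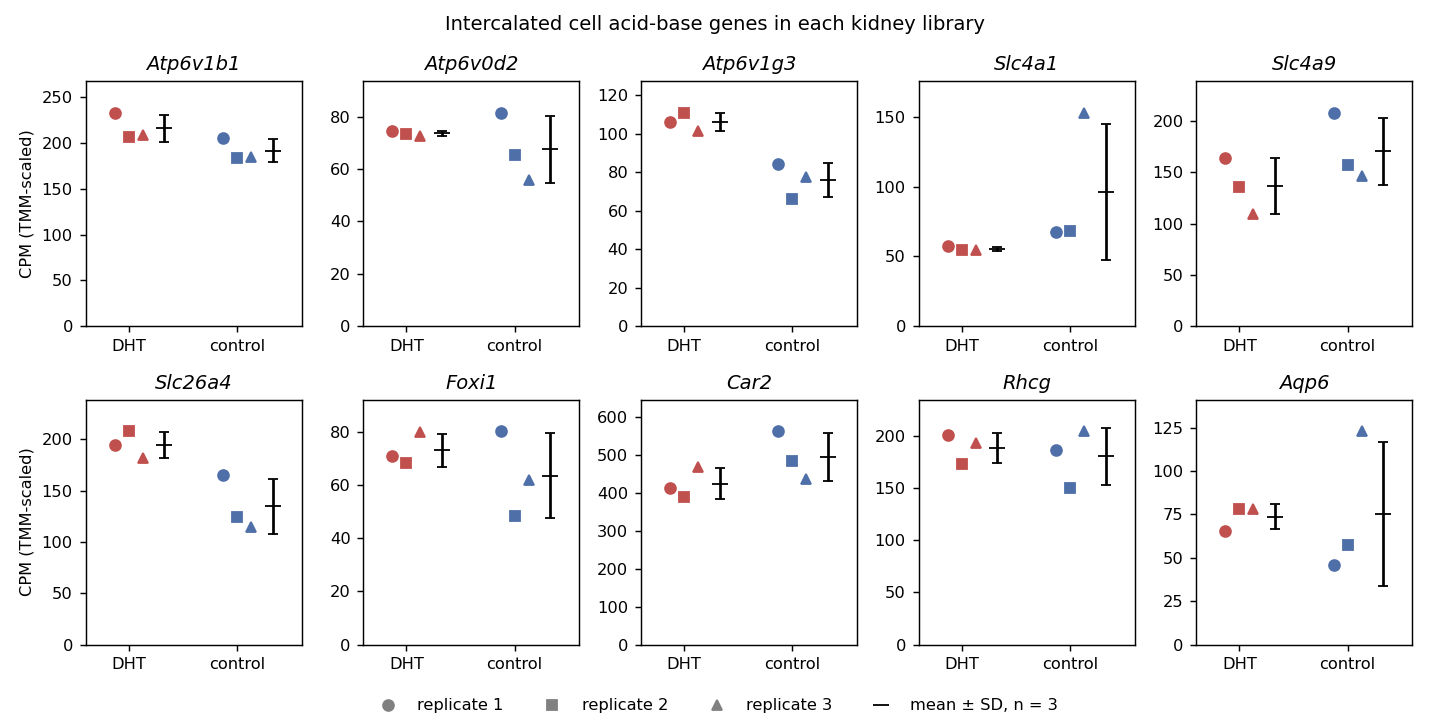
CPM (y axis, from 0) of each of the 10 genes in the 3 DHT and 3 control libraries, with symbols for replicates and a bar for mean ± SD. Atp6v1g3, Slc26a4 and Atp6v1b1 were higher in every DHT library than in any control library, Slc4a1 was lower, and control replicate 3 was far above the other libraries for Slc4a1 and Aqp6.

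Total counts were 15.05 to 19.33 in units of 1e6 per library. The kidney markers Umod (uromodulin of the thick ascending limb) and Slc34a1 (phosphate uptake in the proximal tubule) were abundant in all 6 libraries, at 2759 to 7598 and 3799.6 to 5899 CPM. Control replicate 3 stood apart in Slc14a2 and in most principal cell markers. Slc14a2, a urea transporter of the inner medulla, had 0, 7 and 0 counts in DHT replicates 1, 2 and 3, against 6, 134 and 6919 counts in control replicates 1, 2 and 3. Principal cell markers had a median log2 level of 0.56 above the control mean in control replicate 3, with 10 of 11 above that mean, against -0.28 and -0.19 in control replicates 1 and 2. DHT replicate 2 stood apart in macrophage markers, with a median of 1.55 and 12 of 12 above the control mean, and in red blood cell markers. Kap (kidney androgen-regulated protein), a proximal tubule marker, had 22454, 5689 and 19886 CPM in DHT replicates 1, 2 and 3. It had 1548, 7770 and 7502 CPM in control replicates 1, 2 and 3. Slc22a6, of the same list, had 1181.5, 626 and 1171 CPM in those DHT replicates, and 416 to 542 CPM in control replicates. DHT replicate 2 was the lowest DHT library for both, but the highest for Slc22a8 (1201 CPM) and Slc13a3 (1155 CPM) of that list. In DHT replicate 2 the median of the 10 proximal tubule markers was -0.04 against the control mean, with 5 of 10 above it. Between the groups, 3 of the 10 had log2 fold changes above 0 and 7 below, with a median of -0.09. Slc5a2 had -0.81 ± 0.28 and Lrp2 -0.41 ± 0.18 (SE, edgeR's adjusted p = 0.130 and 0.209).

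The V-ATPase members were Atp6v1b1, Atp6v0d2 and Atp6v1g3, which encode the forms of the B, d and G subunits found in intercalated cells. Atp6v1g3 (chromosome 1, 138273738 to 138289462, plus strand, GENCODE gene models on GRCm38, as for the genes that follow) encodes a G subunit of the pump's stalk. It had 106, 111 and 102 CPM in DHT replicates 1, 2 and 3, against 84.2, 66.4 and 77.6 CPM in control replicates 1, 2 and 3. The lowest DHT library was above the highest control library. The means were 106 ± 4.62 CPM in DHT kidneys and 76.0 ± 9.01 CPM in control kidneys (SD, n = 3 each), with a log2 fold change of 0.48 ± 0.12 (SE, edgeR's adjusted p = 0.0663). Its log2 fold change was between 0.38 and 0.56 under the 15 alternatives run. The RefSeq promoter, shown because Atp6v1g3 had the smallest p of the 10, runs from 250 bases before to 50 bases after the annotated start on chr1:138273488-138273787 (GRCm38.p6, plus strand):
Atp6v1g3: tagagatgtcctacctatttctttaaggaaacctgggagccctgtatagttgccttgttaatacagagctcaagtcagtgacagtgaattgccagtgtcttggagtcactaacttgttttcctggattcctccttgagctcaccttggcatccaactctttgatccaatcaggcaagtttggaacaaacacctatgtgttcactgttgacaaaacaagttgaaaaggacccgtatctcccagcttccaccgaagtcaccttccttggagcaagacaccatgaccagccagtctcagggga

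Atp6v1b1 (chromosome 6, 83742990 to 83758855, plus strand) encodes the B subunit form whose loss in humans causes distal renal tubular acidosis with deafness. It had 233, 207 and 209 CPM in DHT replicates 1, 2 and 3, against 206, 184 and 185 CPM in control replicates 1, 2 and 3. The groups did not overlap, although the lowest DHT library and the highest control library differed by less than 1 CPM. The log2 fold change was 0.17 ± 0.12 (SE, edgeR's adjusted p = 0.413), smaller than for Atp6v1g3. Atp6v0d2 (chromosome 4, 19876841 to 19922605, minus strand) encodes a d subunit that links the membrane and cytosolic parts of the pump and is also made by macrophages and osteoclasts. It had 74.5, 73.5 and 72.7 CPM in DHT replicates 1, 2 and 3, against 81.3, 65.2 and 55.7 CPM in control replicates 1, 2 and 3. The 3 DHT values lay within the control range (log2 fold change 0.13 ± 0.14, edgeR's adjusted p = 0.628). The 12 macrophage markers summed to 152, 584 and 322 CPM in DHT replicates 1, 2 and 3, against 168, 216 and 301 CPM in control replicates 1, 2 and 3, and the part of macrophages in the values of Atp6v0d2 was not tested.

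The promoter of Atp6v1b1 is shown because, of the 6 members with a RefSeq promoter sequence, it was the 1 that held the exact letters TGTTTA. These letters are a core that forkhead factors such as Foxi1 recognise. Variants of this core were not searched, so other members may hold them. The search covered both strands, and 13.4% of all 32851 promoters of the same length held the core. In Atp6v1b1 the capitals mark it, starting 98 bases before the annotated start on chr6:83742767-83743066 (GRCm38.p6, plus strand):
Atp6v1b1: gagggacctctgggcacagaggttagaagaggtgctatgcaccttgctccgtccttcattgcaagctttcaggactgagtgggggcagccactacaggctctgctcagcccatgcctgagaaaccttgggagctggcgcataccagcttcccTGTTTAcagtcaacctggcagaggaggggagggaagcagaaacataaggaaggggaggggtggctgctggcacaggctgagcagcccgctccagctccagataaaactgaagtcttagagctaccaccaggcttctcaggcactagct
The match is a description of these letters, not of binding. The Atp6v1g3 promoter printed above held neither the exact letters TGTTTA nor the exact androgen receptor half-site AGAACA on either strand. Looser forms of both were not searched, and control by either factor was not tested.

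Of the 20 other V-ATPase subunit and accessory genes, 0 passed edgeR's test. At an unadjusted p under 0.05 stood 5, against 23.9% of all tested genes, and DESeq2 called 1, against 10.8% of all genes. Their median log2 fold change was 0.22, against 0.00 over all tested genes, with 16 above 0, where 7736 of 15367 tested genes were. The CPM of the groups did not overlap for 8 genes higher and 1 lower in DHT, against 14.8% and 15% of all tested genes. Atp6v1d and Atp6v1f, subunits of the stalk, were at 150 ± 15.6 and 165 ± 28.4 CPM in DHT against 116 ± 3.51 and 125 ± 3.24 CPM in control kidneys (log2 fold changes 0.38 ± 0.12 and 0.40 ± 0.14, edgeR's adjusted p = 0.113 and 0.137). Atp6v0e, a small membrane subunit, had a log2 fold change of 0.33 ± 0.11 (edgeR's adjusted p = 0.128). Atp6v0a1, a membrane subunit of many tissues, had 44.1, 52.1 and 52.5 CPM in DHT replicates 1, 2 and 3, against 53.5, 65.9 and 62.6 CPM in control replicates 1, 2 and 3 (log2 fold change -0.29 ± 0.13, edgeR's adjusted p = 0.203). The summed level of the 20 genes was 3966, 3348 and 3924 CPM in DHT and 3461, 3353 and 3015 CPM in control, and these ranges overlapped.

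The intercalated-cell subunits could be set against their widely expressed counterparts per length (RPKM, CPM per kilobase of exons). Atp6v1g3 stood at 0.310, 0.326 and 0.291 of the level of Atp6v1g1, the common G subunit, in DHT replicates 1, 2 and 3, and at 0.275, 0.211 and 0.342 in control replicates 1, 2 and 3. Atp6v1b1 was at 0.539 ± 0.044 of Atp6v1b2 in DHT and 0.585 ± 0.0936 in control, and Atp6v0d2 at 0.431 ± 0.027 of Atp6v0d1 in DHT and 0.431 ± 0.051 in control (SD, n = 3 each). All 3 ratios overlapped between DHT and control kidneys, while Atp6v1g1 itself had 206, 205 and 210 CPM in DHT and 184, 190 and 136 CPM in control.

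**Figure D2:**
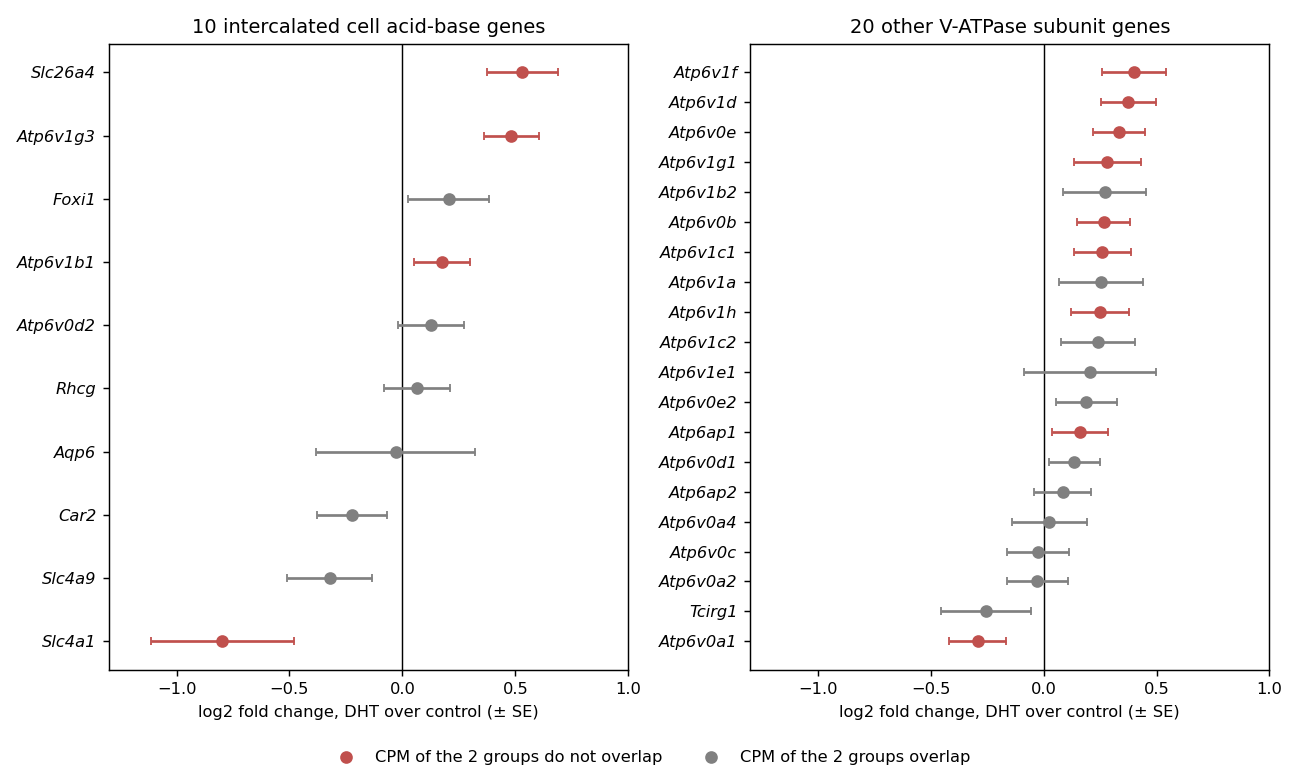
Log2 fold change of DHT over control with its SE (x axis) for the 10 genes (left) and 20 other V-ATPase genes (right), coloured by whether the CPM of the groups overlap. Slc26a4 and Atp6v1g3 were farthest above 0 among the 10 and Slc4a1 farthest below. Of the 20 other V-ATPase genes 16 lay above 0, as did 7736 of all 15367 tested genes.

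Slc26a4 and Slc4a9 are anion transporters of type B cells. Slc26a4 (chromosome 12, 31519827 to 31559969, minus strand) encodes pendrin, the apical exchanger of chloride for bicarbonate. It had 194, 207 and 182 CPM in DHT replicates 1, 2 and 3, against 165, 124 and 115 CPM in control replicates 1, 2 and 3. Every DHT library was above every control library. The means were 195 ± 12.7 CPM in DHT kidneys and 135 ± 26.9 CPM in control kidneys (SD, n = 3 each), with a log2 fold change of 0.53 ± 0.16 (SE, edgeR's adjusted p = 0.0935). The adjusted p stayed above 0.05 in all 6 fits that left out 1 library, with 0.0513 without control replicate 1 as the lowest and 0.269 without control replicate 2 as the highest.

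Slc4a9, which encodes the basolateral exchanger of type B cells, lay the other way. It had 164, 136 and 109 CPM in DHT replicates 1, 2 and 3, against 208, 158 and 146 CPM in control replicates 1, 2 and 3. DHT replicate 1 was above 2 control libraries, so the groups overlapped (log2 fold change -0.32 ± 0.19, edgeR's adjusted p = 0.332). Per length, Slc26a4 stood at 2.43, 3.14 and 3.43 times the level of Slc4a9 in DHT replicates 1, 2 and 3, and at 1.64, 1.62 and 1.62 times in control replicates 1, 2 and 3. The 3 control ratios were nearly equal although Slc4a9 itself ranged from 146 to 208 CPM there, and every DHT ratio was higher. This pair was set side by side after its values were seen, so the ratio is given with no test.

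The promoter of Slc26a4 is shown because Slc26a4 had the largest positive log2 fold change of the 10. In capitals is the androgen receptor half-site AGAACA, read on the opposite strand as TGTTCT, starting 213 bases before the annotated start on chr12:31559935-31560234 (GRCm38.p6, minus strand):
Slc26a4: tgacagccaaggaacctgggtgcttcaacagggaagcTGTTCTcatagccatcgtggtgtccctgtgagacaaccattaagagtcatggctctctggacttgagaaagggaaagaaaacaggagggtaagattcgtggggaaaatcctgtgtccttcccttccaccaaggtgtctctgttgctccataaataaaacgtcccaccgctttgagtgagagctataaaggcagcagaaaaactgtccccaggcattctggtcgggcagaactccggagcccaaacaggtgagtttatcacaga
Of the 6 members with a promoter sequence, 3 held this half-site on either strand, Slc26a4, Foxi1 and Rhcg, as did 19.0% of all promoters. The match starts 193 bases before the annotated start in Rhcg and 23 bases after it in Foxi1. These matches describe letters, not binding, and their part in the fold changes was not tested.

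**Figure D3:**
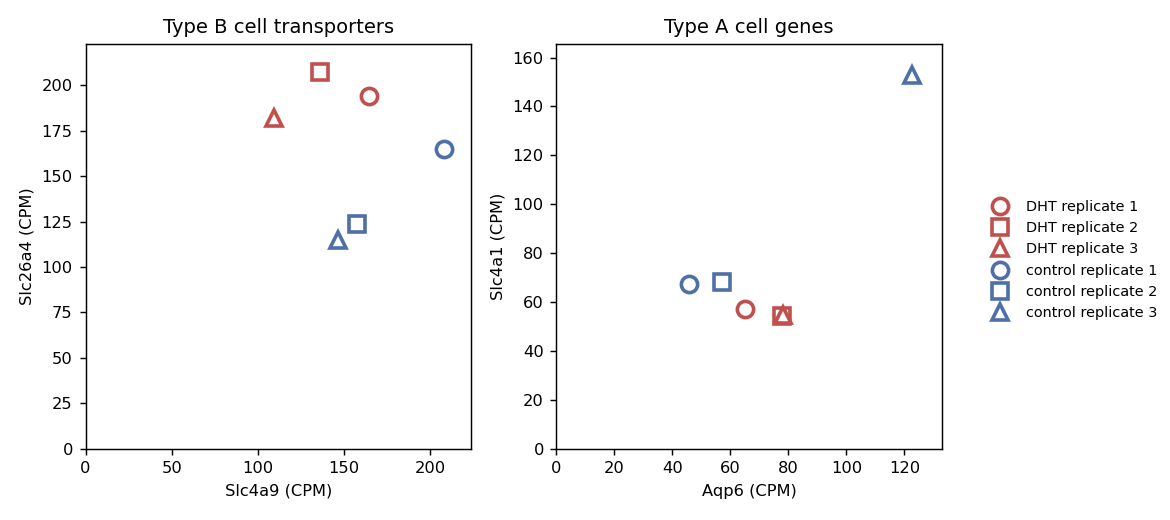
Left, Slc26a4 against Slc4a9, and right, Slc4a1 against Aqp6, in CPM, 1 symbol per library (DHT red, control blue). On the left the DHT libraries lay above the control libraries in Slc26a4. On the right control replicate 3, at 153 CPM of Slc4a1 and 123 CPM of Aqp6, lay far from the other 5 libraries, which were between 54.5 and 68.1 CPM of Slc4a1 and between 45.6 and 78.0 CPM of Aqp6.

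Slc4a1 and Aqp6 are expressed in type A cells. Slc4a1 (chromosome 11, 102348824 to 102366203, minus strand) encodes the basolateral chloride-bicarbonate exchanger, which in a longer form is also a main membrane protein of red blood cells. It had 57.0, 54.5 and 54.5 CPM in DHT replicates 1, 2 and 3, against 67.5, 68.1 and 153 CPM in control replicates 1, 2 and 3. All DHT libraries were below all control libraries, and control replicate 3 was the highest of the 6. The log2 fold change was -0.80 ± 0.32 (SE, edgeR's adjusted p = 0.182), and it was -0.30 without control replicate 3 (edgeR's adjusted p = 0.182). The 12 red blood cell markers summed to 9.99, 76.9 and 11.7 CPM in DHT replicates 1, 2 and 3, against 31.0, 43.1 and 21.4 CPM in control replicates 1, 2 and 3, with DHT replicate 2 highest. The part of red blood cells in the values of Slc4a1 was not tested.

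Aqp6 (chromosome 15, 99601400 to 99605477, plus strand) encodes an aquaporin of intracellular vesicles in type A cells. It had 65.1, 77.9 and 78.0 CPM in DHT replicates 1, 2 and 3, against 45.6, 57.2 and 123 CPM in control replicates 1, 2 and 3. The DHT libraries lay between the control libraries, with control replicate 3 highest (log2 fold change -0.03 ± 0.35, edgeR's adjusted p = 0.965). Without control replicate 3 the log2 fold change of Aqp6 was 0.51 (edgeR's adjusted p = 0.138), and it was also above 0 without DHT replicate 1 (0.05) and with limma-voom (0.11). The medullary marker Slc14a2 was highest in the same library, as were Aqp2, the water channel of principal cells, at 335 CPM there against 87.2 to 124 CPM in the other 5 libraries, and Slc12a1, the sodium-potassium-chloride cotransporter of the thick ascending limb, at 3094 CPM against 863 to 1625 CPM. The part of medullary tissue in the values of Slc4a1 and Aqp6 was not tested.

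Foxi1 (chromosome 11, 34204338 to 34208089, minus strand), the transcription factor of intercalated cells, had 71.1, 68.3 and 80.2 CPM in DHT replicates 1, 2 and 3, against 80.2, 48.3 and 62.1 CPM in control replicates 1, 2 and 3. The groups overlapped, with control replicate 2 the lowest (log2 fold change 0.20 ± 0.18, edgeR's adjusted p = 0.518). Rhcg (chromosome 7, 79593363 to 79617657, minus strand), an ammonia channel of the collecting duct, had 201, 173 and 193 CPM in DHT replicates 1, 2 and 3, against 186, 150 and 204 CPM in control replicates 1, 2 and 3. Its DHT values lay within the control range (log2 fold change 0.07 ± 0.15, edgeR's adjusted p = 0.812), and the sign turned with total-count scaling (-0.05) and without control replicate 2 (-0.05). Car2 (chromosome 3, 14886273 to 14900770, plus strand) encodes the cytosolic carbonic anhydrase that supplies protons and bicarbonate in these cells, in the proximal tubule and in red blood cells. It had 414, 389 and 470 CPM in DHT replicates 1, 2 and 3, against 563, 485 and 438 CPM in control replicates 1, 2 and 3. DHT replicate 3 was above control replicate 3, so the groups overlapped (log2 fold change -0.22 ± 0.16, edgeR's adjusted p = 0.409).

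Per length, Car2 was the most abundant of the 10 in both groups, at 175 ± 17.0 RPKM in DHT and 205 ± 26.0 RPKM in control (SD, n = 3 each), followed by Rhcg at 84.5 ± 6.43 RPKM in DHT and 80.7 ± 12.3 RPKM in control. The length is the union of all annotated exons of a gene, not that of an expressed transcript, and the order below Car2 depends on it. By mean CPM in DHT, Atp6v1b1 (216) was above Slc26a4 (195), Rhcg (189) and Atp6v1g3 (106). In DHT the next were Slc26a4 (62.6 RPKM) and Atp6v1g3 (56.3 RPKM), whose libraries overlapped, then Atp6v1b1 (49.3 RPKM), below both. Foxi1, Aqp6 and Atp6v0d2 followed at 27.1 to 31.1 RPKM with overlap from each to the next, and Slc4a9 and Slc4a1 were lowest, at 21.3 and 11.3 RPKM. In control kidneys Atp6v1b1, Slc26a4 and Atp6v1g3 lay at 43.7, 43.3 and 40.3 RPKM, and from Atp6v1b1 down each gene overlapped the next to the lowest, Slc4a1 at 19.7 RPKM. The libraries of Slc26a4 and Atp6v1b1 did not overlap in DHT kidneys and overlapped in control kidneys.

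Of 21 other genes of intercalated cells, 20 were tested and 1 was lower in DHT, where 1.46% of all tested genes were. Atp6v1c2 and Atp6v0a4 stand both in this list and among the 20 other V-ATPase genes. Avpr1a, a vasopressin receptor, had 8.73, 12.5 and 7.95 CPM in DHT replicates 1, 2 and 3, against 20.6, 20.8 and 21.0 CPM in control replicates 1, 2 and 3. The DHT libraries were all below the control libraries (log2 fold change -1.10 ± 0.19, SE, edgeR's adjusted p = 0.0329). The call of Avpr1a was lost when DHT replicate 1 (adjusted p = 0.101), DHT replicate 3 (0.118), control replicate 2 (0.125) or control replicate 3 (0.0783) was left out, and the log2 fold change was then between -0.97 and -1.10. Over the 20 tested genes the median log2 fold change was -0.14, with 6 above 0 and 14 below, against 7736 above and 7631 below over all tested genes. Without control replicate 1, 1 gene of the list was also higher in DHT.

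Slc4a8, a sodium-driven exchanger of chloride for bicarbonate, had 10.7, 9.33 and 12.1 CPM in DHT against 14.6, 14.0 and 20.9 CPM in control kidneys (log2 fold change -0.62 ± 0.20, edgeR's adjusted p = 0.113). Hmx2, a transcription factor, had 20.8, 21.9 and 19.5 CPM in DHT replicates 1, 2 and 3, against 19.0, 12.2 and 11.3 CPM in control replicates 1, 2 and 3 (log2 fold change 0.55 ± 0.20, edgeR's adjusted p = 0.149). Its groups did not overlap, with control replicate 1 the highest control library, as in Slc26a4. Slc12a7, a potassium-chloride cotransporter, stood at 185 ± 21.4 CPM in DHT kidneys and 150 ± 15.9 CPM in control kidneys (edgeR's adjusted p = 0.229). Among the proton-potassium pumps, Atp4a had 77.6, 73.0 and 92.7 CPM in DHT replicates 1, 2 and 3, against 103, 81.0 and 82.3 CPM in control replicates 1, 2 and 3, and the groups overlapped (log2 fold change -0.13 ± 0.14, edgeR's adjusted p = 0.610). Atp12a had 7 or 8 counts in 5 libraries and 0 in DHT replicate 1 and was not tested.

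Of 10 acid-base and ammonia genes of the proximal tubule 0 passed edgeR's test, with 1 at an unadjusted p under 0.05 (23.9% of all tested genes), and DESeq2 and limma-voom called 0. Their median log2 fold change was -0.05. Car4, a carbonic anhydrase on the cell surface, had 115, 112 and 109 CPM in DHT replicates 1, 2 and 3, against 94.3, 85.8 and 96.1 CPM in control replicates 1, 2 and 3 (log2 fold change 0.28 ± 0.11, edgeR's adjusted p = 0.155). Pck1, a rate-limiting enzyme of glucose production, was at 3392 ± 1214 CPM in DHT kidneys and 2451 ± 327 CPM in control kidneys (edgeR's adjusted p = 0.316). Slc4a4, which carries bicarbonate from proximal cells to the blood, was at 893 ± 61.1 CPM in DHT kidneys and 1060.5 ± 422 CPM in control kidneys (edgeR's adjusted p = 0.627), and Glud1, which releases ammonia from glutamate, at 559 ± 19.4 CPM in DHT kidneys and 611 ± 97.3 CPM in control kidneys (edgeR's adjusted p = 0.664).

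Marker lists of neighbouring segments held 0 calls by edgeR. Principal cell markers had a median log2 fold change of -0.35 (11 tested, 1 at an unadjusted p under 0.05) and loop of Henle markers -0.35 (9 tested, 2), and both were highest in control replicate 3. Kcnj1, a potassium channel of both cell types, stands in both lists, is the median gene of each and is among those at an unadjusted p under 0.05 in each (log2 fold change -0.35 ± 0.15, edgeR's adjusted p = 0.208). Of all tested genes 23.9% were at an unadjusted p under 0.05. Distal convoluted tubule markers had a median of -0.37 (8 tested, 2), with Wnk4, a kinase that regulates salt transport, at 227 ± 32.6 CPM in DHT kidneys and 355 ± 42.1 CPM in control kidneys (edgeR's adjusted p = 0.0634). Control replicate 1 stood highest in that list, at 0.53 above the control mean, and it was also the highest control library for 7 of the 10 acid-base genes, among them Slc26a4, Slc4a9, Foxi1 and Car2. The part of segment composition in these values was not tested.

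**Figure D4:**
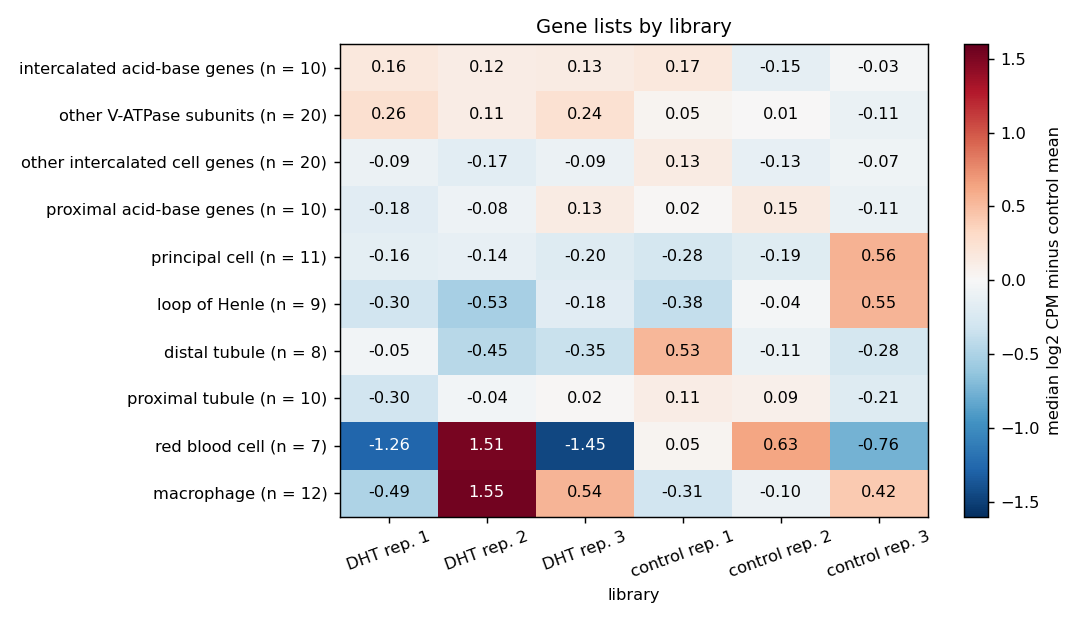
Median log2 CPM of each gene list minus the control mean (colour and number), by library, with the number of genes tested. The acid-base genes stayed between -0.15 and 0.17 in all 6 libraries, while control replicate 3 was high in principal cell and loop of Henle markers and DHT replicate 2 in macrophage and red blood cell markers.

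Around Atp6v1g3, the member with the smallest p, the 5 genes with the nearest profile over the 6 libraries, by root mean square difference of centred log2 CPM, were Churc1 (0.05), Lyst (0.05), A130051J06Rik (0.07), Nup35 (0.07) and Gng10 (0.07), out of 15366 other genes. None was in the lists used here. Their log2 fold changes were 0.41 to 0.65, which follows from their choice by profile, and edgeR's adjusted p was 0.0696 to 0.278.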

How the data were processed

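RNA of 6 kidney samples, 3 DHT and 3 control, was measured. Per the labels' protocols, Trizol was used for extraction and an Illumina protocol for the mRNA libraries. The submitters' processing notes name HISAT2 2.0 and the build mm10. For the counter, its annotation and its strand setting, nothing is stated in the sources used here. Deposited were the authors' raw counts per gene symbol, in columns matched to samples by title. Libraries held 15.05 to 19.33 in units of 1e6 counts.

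Counts were analysed with edgeR 4.0.16 (R 4.3.3): filterByExpr (minimum count 10, total 15; 15367 genes kept), TMM scaling and a robust quasi-likelihood fit of group, with Benjamini-Hochberg adjustment at 0.05. The common biological coefficient of variation was 0.217. SE values follow from the F statistic. On simulated data the fit called 10% of genes changed 1.5-fold, 74% of those changed 2-fold, 94% at 4-fold and 100% at 8-fold (50 genes each). It made 14 false calls in a run of 15122 tested genes, which include the changed ones. In this simulation changes near 1.5-fold were mostly missed. The changed genes were drawn at random and not matched to the members. Shifts shared by many genes of a library were not simulated, so the rates are not those of the 10 members. Alternatives used DESeq2 1.42.0, limma-voom 3.58.1, other scalings and filters, a replicate block and left-out libraries. RPKM values used the union of each gene's exons in GENCODE M21 (GRCm38, the assembly of mm10). No member shares exonic bases with another gene or has a near-identical transcript elsewhere (BLAST 2.17.0+, 95% identity over 50% of the transcript). Promoters are RefSeq's (GRCm38.p6), found for 6 of 10 members.

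The members and lists were chosen with earlier results of these data known. Named genes were the 10 members, up to 4 genes of each list by smallest p, the common counterparts of 3 V-ATPase subunits and the nearest profiles of 1 member. Some genes met by this rule are summarised by counts. Outside this rule, Slc14a2, Aqp2, Umod, Slc34a1, Slc22a8, Slc13a3, Atp4a, Atp12a, Atp6v1a, Atp6v1c2, Atp6v0a4 and Atp6v1e1 were named after their values were seen. Within each group every pair of libraries differed beyond sampling noise.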

Additional observations from a re-analysis of the deposited data

How the results depend on the processing

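Over 15 alternatives, 140 of 150 values of the 10 genes kept their direction and their side of the threshold, 2 passed it (Atp6v1g3 and Slc26a4 with DESeq2) and 8 turned sign. The log2 fold change of Rhcg turned with total counts (-0.0498), and that of Aqp6 with limma-voom (0.105), the replicate block (0.101) and without both DHT replicate 2 and control replicate 3 (0.471), a setting chosen after seeing the data. Over the fits that left out 1 library, Rhcg ranged from -0.0497 to 0.159, Atp6v0d2 from -0.000186 to 0.277 and Aqp6 from -0.296 to 0.512. The cause was not tested. The median log2 fold change of the 10 genes ranged from -0.01 to 0.20.

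DESeq2 called 2 of the 10 genes higher and all other settings 0. Over all genes, 212 were higher and 225 lower; with total counts 132 were higher and 208 lower, with no low-count filter 418 were higher and 434 lower, and with DESeq2 854 and 780. Leaving out single libraries gave 0 to 745 higher and 0 to 479 lower, with 0 and 0 without DHT replicate 3 and 745 and 479 without DHT replicate 2. DESeq2 called 1 other V-ATPase gene higher, 1 loop of Henle and 1 distal tubule marker lower, 1 proximal tubule marker higher and 1 lower, and 1 macrophage marker higher. With no low-count filter 1 distal tubule marker was lower and 1 proximal tubule marker higher. Without single libraries, other intercalated cell genes had 0 to 1 higher and 0 to 1 lower, loop of Henle markers 0 to 1 lower, proximal tubule markers 0 to 1 higher and red blood cell markers 0 to 1 lower. Without DHT replicate 2 and control replicate 3 together 718 genes were higher and 484 lower, among them 1 proximal tubule marker higher, and 1 distal tubule and 4 red blood cell markers lower.

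With the replicate block 36 genes were higher, 49 lower, and 0 other intercalated cell genes lower. Same-numbered samples had correlations of 0.07, -0.15 and 0.04 in their deviations, not every sample correlated best with its own number, and the numbers were not taken as pairs. Avpr1a had an adjusted p of 0.0692 under the block. Where a gene missed the threshold, equal expression is not shown.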

Other observations

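Ratios per length were computed for 7 pairs, 4 between members and 3 of a member to a common V-ATPase subunit, and are given with no test; the 4 pairs of members were chosen after the values were seen. Aqp6 stood at 2.31, 2.89 and 2.89 times the level of Slc4a1 per length in DHT replicates 1, 2 and 3, against 1.36, 1.70 and 1.62 times in control replicates 1, 2 and 3. Control replicate 3, which held by far the highest level of both genes, had a ratio between those of the other control libraries. Slc4a1 stood at 0.187, 0.167 and 0.190 of Slc26a4 in DHT replicates 1, 2 and 3, against 0.260, 0.350 and 0.846 in control replicates 1, 2 and 3. Atp6v1g3 stood at 1.06, 1.25 and 1.13 of Atp6v1b1 in DHT and 0.948, 0.837 and 0.976 in control. The ratios of the 4 pairs of members, Slc26a4 over Slc4a9 among them, did not overlap between DHT and control kidneys. Because these pairs were picked with the values known, that is no result about the members, and no share over other gene pairs was computed. The 3 ratios to the common V-ATPase subunits overlapped.

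Atp6v1e1, the widely expressed E subunit of the V-ATPase, was at 4.01 to 4.81 CPM in DHT and 2.52 to 4.43 CPM in control, while Atp6v1a, the A subunit of the same pump, was at 611 to 931 CPM in DHT and 594 to 696 CPM in control. The check for near-identical transcripts covered the 10 members and not Atp6v1e1, and the counter and its annotation are not stated. The part of read counting in the low level of Atp6v1e1 was not tested. Slc14a2 had 6919 of its counts in control replicate 3, and the low-count filter left it out of the test.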
